A study of Homo sapiens with 12 samples.

Results

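*VTN*, *SLPI*, *QPCT* and *C15orf48* were followed in RNA-seq of a lung cancer line in which *MIB1* could be knocked out. They are 4 of the 58302 Ensembl genes in the count table, and all 4 are among the 17188 genes that passed the filter on low counts. They were chosen by their knockout difference with BMP blocked, as genes examined for lower levels after *MIB1* knockout even with BMP signaling blocked, and for protein changes in the study. Those differences are given below as a description with no test. The knockout difference with BMP released comes from 6 other libraries and was tested, though with earlier results of these data known.

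The cells were MIB1-iKO cells, a single clone of the lung cancer line NCIH838 in which doxycycline (Dox) induces Cas9 and, through a guide RNA, cuts *MIB1*, an E3 ubiquitin ligase gene. All 12 cultures were kept in 50 nM LDN, an inhibitor of BMP receptor kinases (LDN189193 in the sample labels, LDN193189 in the series text), for 3 days. The MIB1 KO cultures also had Dox, at 0.5 μg/mL, in these days, and the MIB1 WT cultures had none. BMP4 at 10 ng/mL was then added to all of them for 24 hours, while LDN was kept (BMP-off) or replaced by DMSO, its solvent (BMP-on). This gave 4 groups of 3 replicates. Dox went to all KO and to no WT cultures, and what Dox, Cas9 or DNA cutting does cannot be told apart from loss of MIB1. The labels do not say whether replicates are separate cultures, and p values then measure only the spread between these libraries.

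The protein that each gene encodes is known. Vitronectin, from *VTN*, is a glycoprotein of plasma and extracellular matrix, made mostly by liver. It holds cells to the matrix through αv integrins and binds the urokinase receptor. Secretory leukocyte protease inhibitor, from *SLPI*, is released by airway and other mucosal epithelia and blocks neutrophil elastase. Glutaminyl cyclase, from *QPCT*, works in the secretory pathway and closes the N-terminal glutamine or glutamate of secreted peptides into pyroglutamate, which shields them from aminopeptidases. NMES1, from *C15orf48* (RefSeq symbol *COXFA4L3*), is the exception, since it is not secreted. It is a small mitochondrial protein that takes the place of NDUFA4 in respiratory complex IV of inflamed cells, and its transcript carries the hairpin of miR-147b.

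On GRCh38 with GENCODE v44 models, *VTN* (ENSG00000109072) spans chr17:28367284-28373091 on the minus strand. Its canonical transcript has 8 exons for 478 residues. *SLPI* (ENSG00000124107) spans chr20:45252239-45254564 on the minus strand, with 4 exons for 132 residues. *QPCT* (ENSG00000115828) spans chr2:37342827-37373322 on the plus strand, with 7 exons for 361 residues. *C15orf48* (ENSG00000166920) spans chr15:45430579-45448761 on the plus strand, and its canonical transcript has 5 exons for only 83 residues.

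The 250 bases before the start site are shown for 3 of the genes, so that their starts can be compared. *SLPI* was not matched in the RefSeq promoter table. The sequences are those of RefSeq on GRCh38.p14, 5′ to 3′ on the strand of the gene. Capitals mark matches, on either strand, to the TATA box TATANA, the CCAAT box CCAAT and the GC-rich element GGCGCC that SMAD1 and SMAD5 can bind.
VTN, chr17:28370308-28370557, minus strand: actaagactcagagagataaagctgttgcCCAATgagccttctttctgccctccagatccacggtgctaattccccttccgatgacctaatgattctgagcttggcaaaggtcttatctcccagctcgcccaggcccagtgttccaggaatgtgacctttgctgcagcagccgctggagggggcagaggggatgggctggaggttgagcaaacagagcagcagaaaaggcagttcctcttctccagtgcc
QPCT, chr2:37344380-37344629, plus strand: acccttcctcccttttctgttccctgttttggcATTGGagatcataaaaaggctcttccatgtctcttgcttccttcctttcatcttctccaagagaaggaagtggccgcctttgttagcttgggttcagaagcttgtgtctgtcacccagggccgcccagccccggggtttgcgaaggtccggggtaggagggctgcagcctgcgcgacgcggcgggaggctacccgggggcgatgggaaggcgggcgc
C15orf48, chr15:45430360-45430609, plus strand: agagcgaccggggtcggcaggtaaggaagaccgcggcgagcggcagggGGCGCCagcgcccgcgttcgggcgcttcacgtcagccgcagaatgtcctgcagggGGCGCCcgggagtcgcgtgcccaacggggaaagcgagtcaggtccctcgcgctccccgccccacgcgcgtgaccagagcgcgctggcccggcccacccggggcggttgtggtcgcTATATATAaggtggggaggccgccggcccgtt
The 3 starts differed in kind. *C15orf48* had a TATA box made of overlapping matches from base -32 to -25, and 17.7% of all 35116 windows of this length held one. It also had GGCGCC at bases -202 to -197 and -147 to -142, a run found in 16.4% of windows. Its window held 36 CpG, above the count in 95.1% of windows, and 73.6% GC. *VTN* and *QPCT* held no TATA match. Each had a single CCAAT match near its far end, at bases -221 to -217 and -217 to -213, as did 32% of windows, with 4 and 14 CpG against a median of 11. No match was found in the 3 windows for the AP-1 site TGANTCA (6.57% of all windows), the NF-kB consensus (9.96%) or the palindromic SMAD site GTCTAGAC (0.182%). These are matches of letters in a short window and say nothing of binding or of the levels of the genes. The shares are over all windows and are not matched for GC content.

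The mature miRNA that lies in the last exon of *C15orf48*, past the coding part, is shown because reads of this exon count toward the gene. Capitals mark its seed, bases 2 to 8, in the RefSeq sequence at chr15:45433098-45433118 on the plus strand.
hsa-miR-147b-3p: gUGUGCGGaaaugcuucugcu
The hairpin's own row, *MIR147B*, held 0 counts in every library, so that only the level of the host transcript was measured.

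Total counts per library ran from 19124010 to 29498000. *MIB1*, the target, was at 176, 144 and 154 CPM (counts scaled to a common library total with TMM factors) in the WT BMP-off libraries and at 34.2, 34.4 and 32.5 in the KO BMP-off libraries. With BMP-on it was at 158, 175 and 153 in WT and at 33.0, 31.0 and 32.0 in KO. The KO libraries thus held 21.4% of the WT *MIB1* level with BMP-off and 19.7% with BMP-on, as their labels imply. Of 5 epithelial markers, 4 had a median of at least 1 RPKM (the authors' normalized read number per kilobase of gene), led by *KRT18* and *KRT8*. None of 4 lung lineage markers did, with *NKX2-1* at a median of 0, nor did any of 4 airway secretory markers or 5 hepatocyte markers, so that *SLPI* and *VTN* were read here without the usual markers of the tissues known for them. Of 5 blood markers, *CD14* had a median of 2.20 RPKM (1.72 to 2.72 over the libraries), while *CD3E*, *LYZ* and *ELANE* had medians under 0.1 and *PTPRC*, the defining marker of blood cells, was at 0 in every library. The summed level of the 5 ran from 1.84 to 2.94 RPKM, with ranges that overlapped between all 4 groups.

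Compared per length of transcript, *SLPI* was the most abundant of the 4. With BMP-off in WT cells it stood at 562 ± 9.89 RPKM (SD, n = 3), against 97.5 ± 5.22 for *C15orf48*, 33.1 ± 1.08 for *QPCT* and 10.7 ± 0.654 for *VTN*. That order held in all 4 groups. *VTN* rested on the fewest reads, 314 to 644 counts per library, and *SLPI* on 3440 to 8883.

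**Figure D1:**
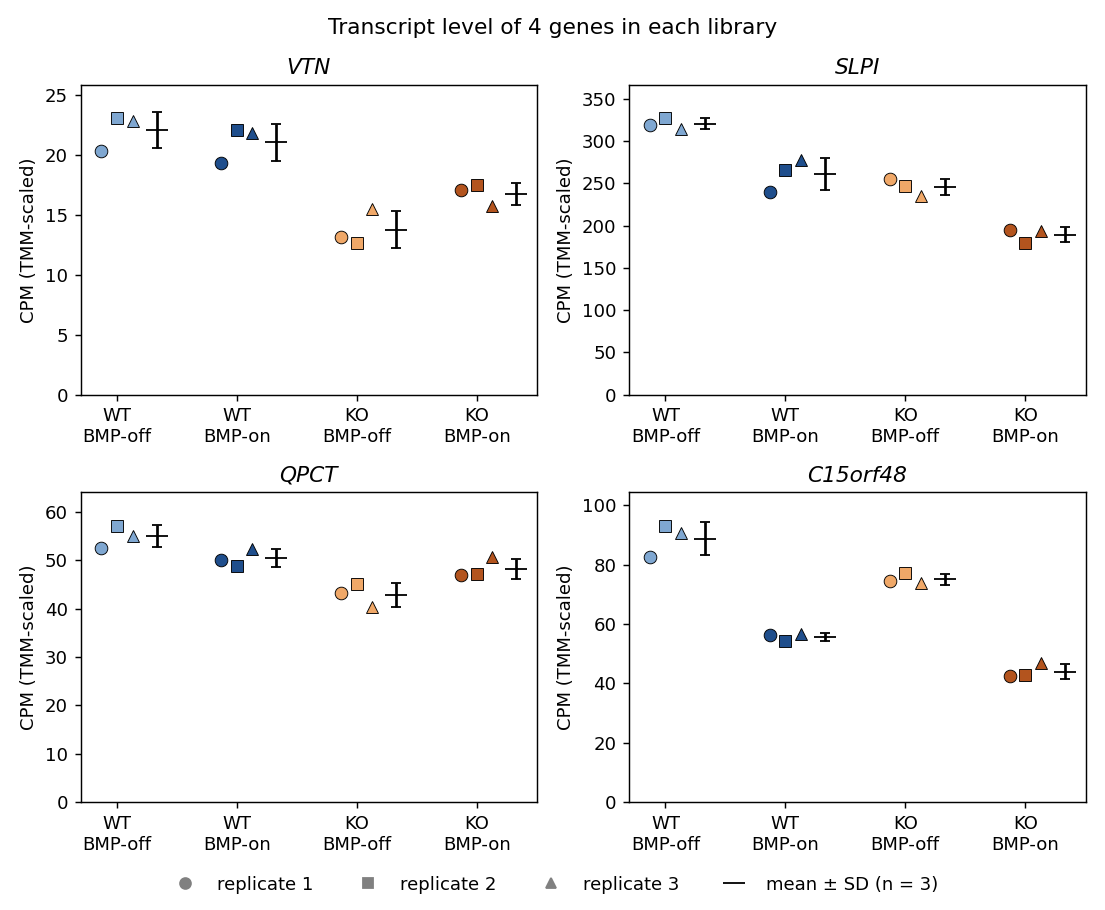
TMM-scaled CPM (vertical axes, from 0) of *VTN*, *SLPI*, *QPCT* and *C15orf48* in the 12 libraries, by group and replicate, with the mean and SD of 3 libraries in black. The KO libraries lie below the WT libraries of the same BMP state in every panel except *QPCT* with BMP-on, where 48.3 ± 2.08 and 50.5 ± 1.80 CPM overlap.

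The first comparison asks what *MIB1* knockout does to the 4 transcripts while BMP signaling is blocked. *VTN* was at 20.3, 23.0 and 22.8 CPM in the WT BMP-off libraries and at 13.2, 12.6 and 15.5 in the KO BMP-off libraries. The groups did not overlap, and the KO mean was 62.3% of the WT mean. *SLPI* was at 319, 327 and 314 CPM in WT and at 255, 247 and 235 in KO, again apart, at 76.7%. *QPCT* was at 52.6, 57.2 and 55.1 CPM in WT and at 43.3, 45.2 and 40.3 in KO. The gap between the lowest WT and the highest KO library was wider than the range within either group, and the KO mean was 78.1% of the WT mean. *C15orf48* was at 82.6, 93.1 and 90.7 CPM in WT and at 74.4, 77.1 and 73.7 in KO, the smallest difference of the 4, at 84.5%.

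In the edgeR fit the log2 fold changes of KO against WT with BMP-off were -0.68 for *VTN* (SE 0.0904), -0.38 for *SLPI* (SE 0.0532), -0.36 for *QPCT* (SE 0.0590) and -0.24 for *C15orf48* (SE 0.0559). Every KO library lay below every WT library for all 4 genes, as for 5.96% of all genes tested. Since these differences chose the genes, they carry no test. Among the 12837 genes with a mean of at least 50 counts, ordered from the most negative fold change, *VTN* was at place 11, just after *SNHG19* (-0.683) and just before *CFD* (-0.665). *SLPI* was at place 180, *QPCT* at 238 and *C15orf48* at 795. The genes were thus not the 4 most lowered ones, and the study's protein measurements also entered the choice. The study's list of changed proteins held vitronectin, SLPI and NMES1, each lower after knockout. It did not hold glutaminyl cyclase, and whether that protein was measured is not stated there. The transcript of *VTN* is 59.5% GC, above 86.0% of the genes tested. The Spearman correlation of a library's deviation from its group with GC content was -0.603 in KO BMP-off replicate 2, which had the lowest *VTN* value, and 0.586 in replicate 3, which had the highest. In WT BMP-on the libraries had the same order by this correlation and by *VTN*. In WT BMP-off and KO BMP-on the library with the highest correlation was not the one with the highest *VTN* value. With a GC correction the *VTN* fold change was -0.563. The part of GC content in the *VTN* difference was not tested.

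The next comparison asks whether the lower levels are seen once BMP signaling is on, in other libraries than those compared above. Since the genes were chosen with earlier results of these data known, its tests are no independent check. *VTN* was at 19.3, 22.0 and 21.8 CPM in the WT BMP-on libraries and at 17.1, 17.4 and 15.7 in the KO BMP-on libraries. The groups lay apart, by less than with BMP-off. *SLPI* was at 240, 266 and 277 CPM in WT and at 195, 180 and 194 in KO, well apart. *C15orf48* was at 56.2, 54.2 and 56.6 CPM in WT and at 42.4, 42.7 and 46.8 in KO, with tight groups that did not overlap. *QPCT* was at 50.1, 48.9 and 52.4 CPM in WT and at 46.9, 47.3 and 50.6 in KO, where the highest KO library lay above the lower pair of WT libraries.

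With BMP-on, *SLPI*, *C15orf48* and *VTN* were lower in KO cells by edgeR's quasi-likelihood test with Benjamini-Hochberg adjustment over all 17188 genes, while *QPCT* did not pass. That is 3 of 4 genes called lower, where 2.34% of all genes were and 1.32% were called higher. Nothing is read from this share, since the 4 were chosen for lower levels after the same knockout. *SLPI* changed by -0.46 on the log2 scale (SE 0.0536, adjusted p = 0.000144) and was at 72.6% of the WT mean. *C15orf48* changed by -0.34 (SE 0.0580, adjusted p = 0.0026 in the same edgeR test), at 78.9%. *VTN* changed by -0.33 (SE 0.0892, edgeR adjusted p = 0.0494), at 79.6%. For *QPCT* the fold change was -0.06 (SE 0.0589, edgeR adjusted p = 0.724), with a 95% interval from -0.18 to 0.05 and a KO mean of 95.6% of the WT mean. Every KO library lay below every WT library for the 3 called genes, as for 12.2% of all genes with BMP-on. No gene of the 4 reached a log2 fold change of 1 in size, the limit that the study set for its own calls, which 0.14% of all genes passed together with the adjusted p.

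The call of *VTN* lay at the threshold, whereas those of *SLPI* and *C15orf48* did not. *SLPI* and *C15orf48* passed under all 26 alternative settings, with log2 fold changes from -0.52 to -0.42 and from -0.39 to -0.32. *VTN* was lower under all 26, from -0.39 to -0.29, but passed in 12. It did not pass without WT BMP-on replicate 2 (-0.30, edgeR adjusted p = 0.182) or 3 (-0.31, 0.166). The same held without KO BMP-on replicate 1 (-0.35, edgeR adjusted p = 0.108), 2 (-0.37, 0.0922) or 3 (-0.29, 0.188). Without WT BMP-off replicate 2 or 3 or KO BMP-off replicate 1, which only alter the shared estimate of spread, the edgeR adjusted p was 0.0623, 0.0571 and 0.0587. With the replicate number as a block it was 0.0760. With a GC correction *VTN* changed by -0.39 (edgeR adjusted p = 0.000499). *QPCT* passed in none of the 26, with fold changes from -0.10 to -0.04 and adjusted p of at least 0.592.

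**Figure D2:**
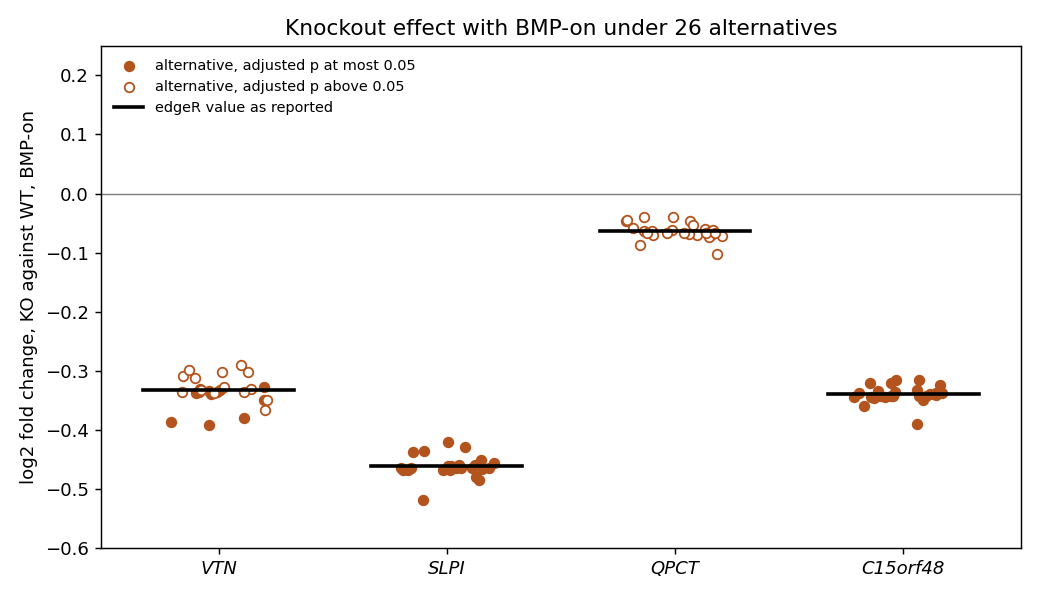
Log2 fold change of KO against WT with BMP-on (vertical axis) for each gene, as reported (black line) and under 26 alternative settings (points, spread sideways for sight, filled where the adjusted p was at most 0.05). *SLPI* and *C15orf48* points are all filled, 12 of the 26 *VTN* points are, and no *QPCT* point is.

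The effect of BMP itself set the 4 genes apart further. These values share the BMP-off libraries with the comparison that chose the genes, so they are given without a test. Of all genes, edgeR called 2.01% lower and 1.91% higher with BMP-on in WT cells. In KO cells it called 10.9% lower and 11.1% higher. How many genes had no overlap between BMP states was not worked out, so the lack of overlap is only a description. *C15orf48* had the most negative log2 fold changes, -0.67 in WT cells (SE 0.0565) and -0.77 in KO cells (SE 0.0577), and in both genotypes the BMP-on libraries lay below all BMP-off libraries. *SLPI* had a fold change of -0.29 in WT cells (SE 0.0531) and -0.37 in KO cells (SE 0.0536), likewise with no overlap. *QPCT* had -0.12 in WT cells (SE 0.0585), where the highest BMP-on library and the lowest BMP-off library nearly touched at 52.4 and 52.6 CPM. In KO cells it had 0.17 (SE 0.0594), with all BMP-on libraries above all BMP-off libraries. *VTN* had -0.07 in WT cells (SE 0.0873), with overlapping groups, and 0.28 in KO cells (SE 0.0922). With a GC correction the KO value of *VTN* was 0.05, less than its SE.

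The knockout differences of the BMP states were then set against each other. The BMP-on minus BMP-off difference in log2 fold change was 0.35 for *VTN* (SE 0.127) and 0.29 for *QPCT* (SE 0.0833), toward a smaller gap with BMP-on. It was -0.08 for *SLPI* (SE 0.0754) and -0.10 for *C15orf48* (SE 0.0805), each little more than its SE. With a GC correction it was 0.18 for *VTN* and 0.33 for *QPCT*. A test of these differences was not made, since the BMP-off libraries chose the genes.

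**Figure D3:**
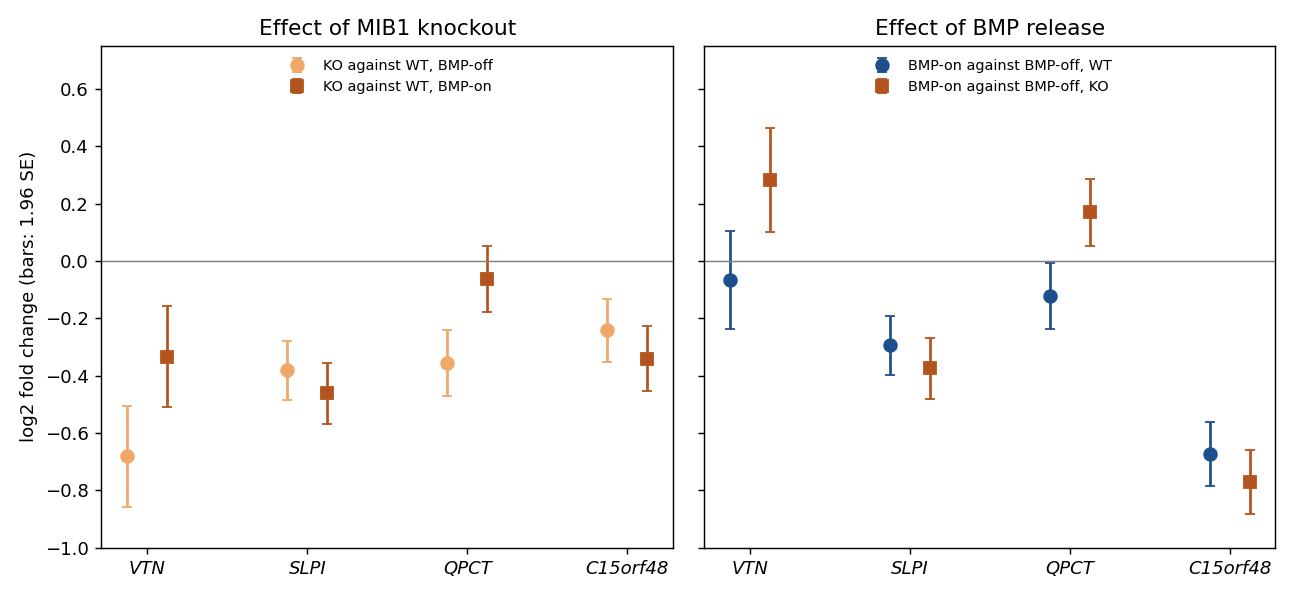
Log2 fold changes (vertical axis, with normal 95% intervals) of KO against WT in each BMP state (left) and of BMP-on against BMP-off in each genotype (right). *SLPI* and *C15orf48* lie below 0 in all 4 comparisons, whereas the BMP response of *VTN* and *QPCT* is -0.07 and -0.12 in WT cells and 0.28 and 0.17 in KO cells.

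Ordered by level, the groups followed a pattern of their own for each gene. *VTN* went in mean from KO BMP-off (13.7 ± 1.52 CPM, n = 3) through KO BMP-on (16.7 ± 0.921) and WT BMP-on (21.0 ± 1.52) to WT BMP-off (22.1 ± 1.52). The last pair overlapped, and all 6 KO libraries lay below all 6 WT libraries. Such a split is found for 0.186% of all genes, from which nothing is read, since the BMP-off libraries among them chose the gene. *SLPI* was lowest in KO BMP-on (189 ± 8.47 CPM), and KO BMP-off (246 ± 9.91) and WT BMP-on (261 ± 18.8) overlapped below WT BMP-off (320 ± 6.48). *QPCT* went from KO BMP-off (42.9 ± 2.47 CPM) through KO BMP-on (48.3 ± 2.08) and WT BMP-on (50.5 ± 1.80), which overlapped, to WT BMP-off (54.9 ± 2.28). *C15orf48* went from KO BMP-on (43.9 ± 2.45 CPM) through WT BMP-on (55.7 ± 1.28) and KO BMP-off (75.0 ± 1.79) to WT BMP-off (88.8 ± 5.52), and none of its neighbours overlapped. In these means the *C15orf48* groups were ordered by BMP state and then by genotype, and those of *VTN* by genotype first. Both orders are a description, since they include the BMP-off libraries that chose the genes.

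In bulk RNA, fewer cells that express a gene and less RNA per cell cannot be told apart. The summed level of 4 fibroblast markers moved with BMP, from between 1.81 and 3.11 RPKM with BMP-off to between 4.29 and 6.35 with BMP-on. Nearly all of it was *COL1A1*, while *COL1A2*, *DCN* and *PDGFRA* had medians under 0.1 RPKM. Its part in the BMP responses was not tested.

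Among the partners of vitronectin, 3 genes were lower after knockout with BMP-on. The list held its integrin receptors, the plasminogen activator system and other matrix ligands, and 16 of its 18 genes were tested. It was drawn up with results of these data known, so nothing is read from its count of calls. With BMP-on, edgeR called 3 of these 16 lower in KO cells, where 2.34% of all genes were, and 0 higher, where 1.32% were. At an unadjusted p under 0.05 it was 3 and 1. Their median log2 fold change was -0.07 with BMP-off, where that of all genes was -0.00862. With BMP-on it was -0.06, and that of all genes 0.00247. *ITGB8*, the integrin subunit that pairs with αv and activates TGF-β, ran from 5.07 to 5.71 CPM in KO and from 7.05 to 9.89 in WT (-0.63, edgeR adjusted p = 0.00734). *THBS1*, a matrix protein of the thrombospondin family, ran from 33.5 to 39.2 CPM against 46.9 to 55.9 (-0.51, edgeR adjusted p = 0.00316). *PLAU*, the urokinase plasminogen activator, ran from 63.3 to 63.8 CPM against 73.7 to 76.2 (-0.23, edgeR adjusted p = 0.0109). *THBS1* passed in all 12 fits that left out a library but not with limma on log2(RPKM + 1) without a filter (-0.44, adjusted p = 0.0644). *ITGB8* did not pass without WT BMP-on replicate 2 (-0.48, edgeR adjusted p = 0.0519). Nor did it with limma on log2(RPKM + 0.1) (-0.55, adjusted p = 0.0726) or on log2(RPKM + 1), where its fold change was only -0.27 (adjusted p = 0.111, and 0.232 without a filter). *PLAU* did not pass without WT BMP-on replicate 2 or 3 or KO BMP-on replicate 1 or 3 (0.0503 to 0.0754).

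Unlike *ITGB8* and *PLAU*, the partners *ITGAV*, *ITGB3*, *ITGB5* and *PLAUR* did not pass the test with BMP-on. *ITGAV*, the αv subunit, had a log2 fold change of 0.03 and *ITGB5*, its β5 partner, -0.06. *PLAUR*, the urokinase receptor, had 0.12. *ITGB3* was at only 0.580 ± 0.00893 RPKM in KO BMP-on cells, so that among the β subunits fixed here *ITGB5*, at 50.9 ± 2.36 RPKM, was far the more abundant. *VTN* itself, at 8.01 ± 0.441 RPKM in that group, lay below *PLAU* (24.4 ± 0.163) and *PLAUR* (73.0 ± 1.22).

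Among the relatives of *SLPI*, the count of calls was near that of all genes. Of 31 genes of WAP-domain and other protease inhibitors, 16 were tested, and with BMP-on edgeR called 1 lower in KO cells and 0 higher (1 and 1 at an unadjusted p under 0.05), around a median of -0.02, where 2.34% and 1.32% of all genes were called. That gene was *PI3*, which encodes elafin, another elastase inhibitor with a WAP domain. It was at 10.6, 14.6 and 12.1 CPM in WT BMP-on and at 8.43, 8.20 and 6.91 in KO BMP-on libraries, with no overlap. Its log2 fold change was -0.67 (SE 0.148, edgeR adjusted p = 0.0180), and it did not pass without WT BMP-on replicate 2 or 3 or KO BMP-on replicate 2 or 3 (0.0556 to 0.103), nor with limma on log2(RPKM + 1) without a filter (-0.63, adjusted p = 0.0939). With BMP-off *PI3* had -0.28 (SE 0.143). *WFDC2*, the other WAP-domain relative fixed for comparison, was near the floor at 0.688 ± 0.241 RPKM in KO BMP-on cells, with a log2 fold change of 0.05.

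Among the genes around glutaminyl cyclase, 1 was lower. Of 17 genes of its paralog, substrates and peptide processing, 9 were tested, and with BMP-on edgeR called 1 lower in KO cells and 0 higher (again 1 and 1 unadjusted), around a median of -0.03, against the same 2.34% and 1.32% of all genes. It was *PCSK1*, a prohormone convertase, which ran from 75.9 to 84.8 CPM in KO and from 94.9 to 110 in WT (-0.36, SE 0.0576, edgeR adjusted p = 0.00175) and passed under all 26 alternatives. *QPCTL*, the Golgi paralog, had 0.03 with BMP-on and -0.28 (SE 0.113) with BMP-off. Both values lie near those of *QPCT*, at larger SE. *CD47*, a surface protein whose N-terminal pyroglutamate is made by QPCTL, had -0.09 with BMP-on, and *CCL2*, a chemokine substrate at 2.28 ± 0.184 RPKM in KO BMP-on cells, had 0.38 (edgeR adjusted p = 0.228).

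No gene of complex IV, where NMES1 sits, passed the test. Of 25 genes for its subunits, assembly factors and NDUFA4, 20 were tested, and edgeR called 0 of them with BMP-on. With 2.34% of all genes called lower and 1.32% higher, a count of 0 in so short a list is near the background. Their median was 0.02 on the log2 scale. At an unadjusted p under 0.05, 2 were higher and 0 lower, and 0 were called under each of the 26 alternatives, DESeq2 and limma-voom included. *NDUFA4*, the subunit that NMES1 replaces, was at 44.1, 44.3 and 49.4 CPM in WT BMP-on and at 46.8, 51.1 and 53.1 in KO BMP-on libraries. These overlapped, with a log2 fold change of 0.13 (SE 0.0654, edgeR adjusted p = 0.399). *COX4I1*, a nuclear-encoded subunit, had -0.01. *C15orf48* was the more abundant of the pair per length, at 97.5 RPKM against 23.4 for *NDUFA4* in WT BMP-off cells and 47.4 against 24.3 in KO BMP-on cells.

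**Figure D4:**
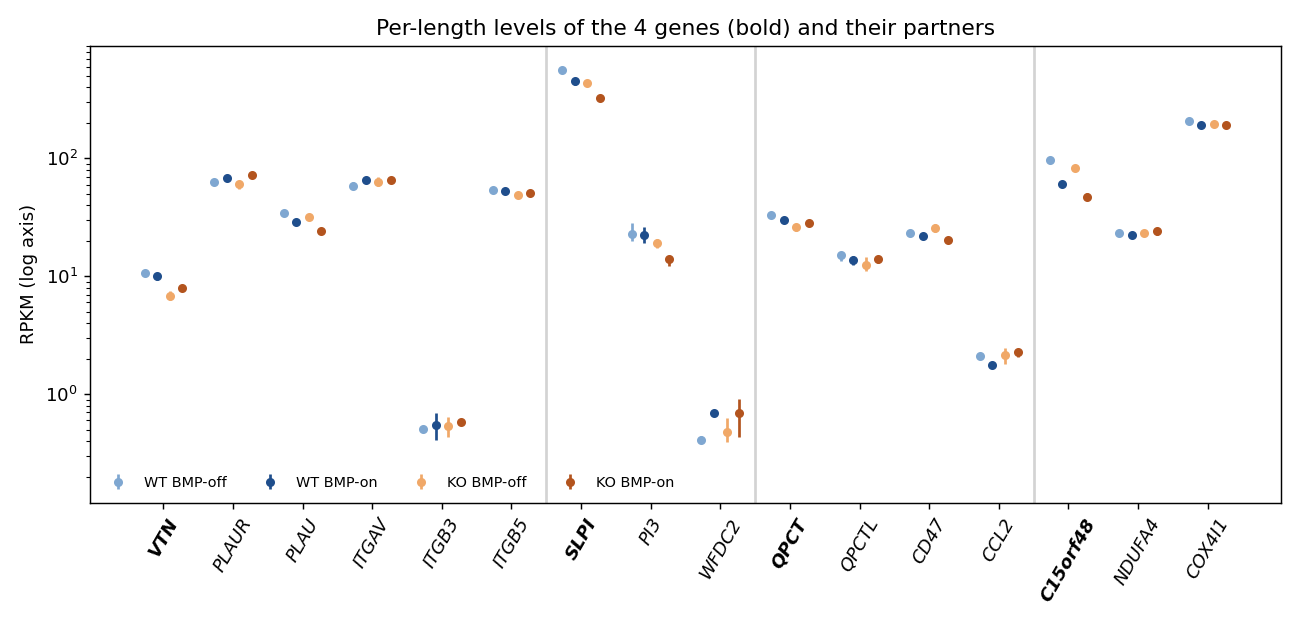
RPKM (log axis) of the 4 genes, in bold, each followed by its partner genes, as the group mean of 3 libraries with bars from the lowest to the highest library. *SLPI* is the highest of all genes drawn, and *ITGB3* and *WFDC2* lie under 1 RPKM in every group mean.

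Genes of epithelial stress and the acute phase, the setting in which *SLPI* and *C15orf48* are known to be induced, were examined as a list of 36, of which 22 were tested. With BMP-off, the fold change of KO against WT was below 0 for 10 and above 0 for 12 of them, around a median of 0.05. With BMP-on, it was below 0 for 13 and above 0 for 9, around a median of -0.04. edgeR called 4 lower in KO cells and 1 higher (6 and 1 at an unadjusted p under 0.05), where 2.34% and 1.32% of all genes were. *S100A9*, a calgranulin, ran from 2.30 to 4.64 CPM in KO and from 5.65 to 7.97 in WT (-0.99, edgeR adjusted p = 0.0148). *KRT17*, a stress keratin, ran from 13.0 to 13.9 CPM against 20.5 to 21.7 (-0.64, edgeR adjusted p = 0.0241). *IL6*, a cytokine of the acute phase, had -0.55 and *SAA1*, an acute phase protein, -0.42 (edgeR adjusted p = 0.0188 and 0.0464).

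*TNFAIP3*, which restrains NF-kB signaling, was the gene that rose, by 0.27 (edgeR adjusted p = 0.0266). None of these 5 passed in every fit that left out a library. Their highest edgeR adjusted p was 0.0682 for *S100A9* (without KO BMP-on replicate 3, and also above 0.05 without WT BMP-on replicate 2 or 3). It was 0.106 for *KRT17*, which failed without any one of WT BMP-on replicates 1, 2 and 3 and KO BMP-on replicates 1, 2 and 3. *IL6* failed without WT BMP-on replicate 3 or KO BMP-on replicate 1 or 3 (up to 0.104), and *TNFAIP3* without WT BMP-on replicate 1 or 2 or KO BMP-on replicate 2 or 3 (up to 0.1698). *SAA1* passed in only 4 of 12 such fits (up to 0.201), those without WT BMP-off replicate 1, WT BMP-on replicate 1, or KO BMP-off replicate 2 or 3.

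With BMP, this list moved in the direction of *SLPI* and *C15orf48*. In WT cells the fold change was below 0 for 20 of its 22 genes (median -0.39). edgeR called 3 of them lower and 0 higher (13 and 0 at an unadjusted p under 0.05), where 2.01% of all genes were lower and 1.91% higher. In KO cells it was below 0 for 18 (median -0.33), and 12 were called lower and 1 higher, where 10.9% and 11.1% of all genes were. *IL6* had -1.28 in WT and -1.70 in KO cells, and *SAA1* -0.67 and -0.68. The list, like the others, was drawn up with results of these data known, and it shares all 12 libraries with *SLPI* and *C15orf48*.

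The genes whose levels ran most like each of the 4 were found by Pearson's r of log2 CPM over 12 libraries, among 12833 genes with a mean of at least 50 counts. Since the libraries form 4 groups, these values mostly compare group levels, and they are a description. For *VTN* they were *SMOC1* (r = 0.949, Spearman's rho = 0.902), *KIAA0319L* (0.927), *DENND2B* (0.923), *NCSTN* (0.899) and *TIMP4* (0.899). *SMOC1*, a secreted matricellular protein that binds calcium, had log2 fold changes of -0.24 with BMP-off and -0.11 with BMP-on, a shape like that of *VTN* at a smaller size. For *SLPI* they were *NUP85* (0.983), *PCSK1* (0.981), *GLT8D2* (0.966), *SIAE* (0.961) and *NNT* (0.957). *PCSK1* had -0.28 with BMP-off and -0.36 with BMP-on.

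For *C15orf48* the likest genes were *ANXA7* (r = 0.984), *TMEM106C* (0.984), *AGTPBP1* (0.984), *ANXA3* (0.982) and *SUCLG2* (0.981). *ANXA3*, an annexin, had larger BMP responses than *C15orf48*, at -1.02 in WT and -1.45 in KO cells. For *QPCT* the likeness was weaker, with *HEXA* (0.874), a lysosomal hexosaminidase subunit, *RNF5* (0.865), *ARV1* (0.857), *CASTOR2* (0.850) and *UMAD1* (0.849). *HEXA* had -0.17 with BMP-off and -0.03 with BMP-on.

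Reads could be shared with neighbouring genes, because counting by strand is not stated. *SARM1*, on the strand opposite to *VTN* and overlapping it, had a mean of 134 counts and log2 fold changes of -0.19 with BMP-off and -0.01 with BMP-on. *SLC30A4-AS1* overlaps the annotated span of *C15orf48* on the same strand, with a mean of 48.4 counts, and had -0.08 with BMP-off and -0.71 with BMP-on (edgeR adjusted p = 0.0377). *TMEM199* and *POLDIP2* beside *VTN*, *PRKD3* beside *QPCT* and *SPATA5L1* beside *C15orf48* had fold changes with BMP-on of -0.04, 0.03, -0.07 and -0.10, and none of them passed.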

How the data were processed

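RNA of 12 libraries (4 groups of 3) was read as single-end 50-base reads. Before deposit, the authors filtered out rRNA reads, used GSNAP for alignment (GRCh38) and HTSeqGenie for counting on RefSeq exons. The deposited counts are raw whole numbers for 58302 Ensembl genes, and the authors' second table holds RPKM values normalized between libraries. Which of 2 library kits served which sample, and whether counting used the strand, is not given in the sources used here. The files use Ensembl identifiers, of which 57532 matched a GENCODE v44 symbol.

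The tests used edgeR 4.0.16 in R 4.3.3, with TMM factors, the default low-count filter and 1 robust quasi-likelihood model of the 12 libraries, which had a coefficient for each of 4 groups. Adjusted p values are Benjamini-Hochberg over 17188 genes, with a threshold of 0.05. The procedure was tested on simulated data. The 4 genes, the gene lists and the tests were chosen with earlier results of these data known. Genes named are the 4 genes, *MIB1*, partners fixed by name, up to 4 called genes of each of 5 lists by size of fold change, the 5 likest genes for each of the 4, and annotated genes within 20 kb. *TNFAIP3* is named besides, as the only called gene of the lists that was higher. 1 of the partners fixed by name is not reported here.

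Other settings were limma-voom (limma 3.58.1) after quantile normalization, as the authors did, DESeq2 1.42.0, 3 other scalings, no low-count filter or a minimum of 10 counts per library, only the groups compared, a replicate block, a GC correction (loess per library, span 0.4, on transcript GC content, known for 99.4% of genes tested) with and without the block, limma on log2(RPKM + 1) and log2(RPKM + 0.1) with a mean RPKM of at least 0.1, log2(RPKM + 1) without that filter, and each library left out in turn.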

Additional observations from a re-analysis of the deposited data

Results flagged for a closer look

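*QPCT* moved in opposite directions with BMP in WT and KO cells. Every WT BMP-on library (48.9 to 52.4 CPM) lay below every WT BMP-off library (52.6 to 57.2), and every KO BMP-on library (46.9 to 50.6) lay above every KO BMP-off library (40.3 to 45.2). The WT groups nearly touched. The share of all genes with such splits was not worked out, so nothing is read from them. The difference of the log2 fold changes was 0.2918, and it was between 0.236 and 0.332 under 25 alternatives. The difference was not tested, since the BMP-off libraries chose the gene.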

How the results depend on the processing

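The log2 fold changes of *SLPI*, *C15orf48* and *QPCT* with BMP-on kept their direction and their side of the threshold under all 26 alternatives. That of *VTN* kept its direction and lost its call with scaling by library size only (-0.3097), at least 10 counts in every library (-0.3316), a replicate block (-0.3285), log2(RPKM + 1) with or without the filter (-0.303) and log2(RPKM + 0.1) (-0.333), at adjusted p from 0.0527 to 0.102. Leaving out each library in turn gave -0.3922 to -0.2903. The cause was not tested.

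The number of genes called with BMP-on, 630, was 1237 with only the groups compared, 1279 with a GC correction, 1146 with the block and GC correction, 409 with log2(RPKM + 0.1), 329 with log2(RPKM + 1) and no filter, and 326 to 862 with a library left out. With a GC correction the BMP response in KO cells was 0.0483 for *VTN* (0.0492 with the block) and -0.691 for *C15orf48* (-0.6923), and the difference between BMP states for *VTN* was 0.1762 (0.1807). With BMP-off the 4 genes stayed negative under all 26 alternatives, *VTN* between -0.762 and -0.561.

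Of 18 pairs of libraries with the same replicate number, 2 had a residual correlation above 0.1, in a range from -0.187 to 0.189. Pairs with different numbers were not compared. Whether the numbers pair the libraries cannot be told from this, since GC trends of single libraries also enter these correlations. The block changed no other call among the 4 genes. Among the list genes it ended the calls of *SAA1* and *TNFAIP3*. Limma on log2(RPKM + 1) without the filter ended those of *ITGB8*, *THBS1*, *PI3*, *S100A9*, *KRT17*, *IL6* and *TNFAIP3*, with the filter those of *ITGB8* and *TNFAIP3*, as did log2(RPKM + 0.1). Scaling by library size only ended that of *SAA1*. Averaged over all genes tested, the variance between replicates was 2.98 to 17.2 times that of counting alone. It was not worked out for single genes, so how far depth limits the values of the named genes is not known.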
